A study of Mus musculus with 11 samples.

Results

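The nuclear receptor gene Nr4a1 and 9 other immediate early transcription factor or response genes were followed in whole mouse testis, namely its relatives Nr4a2 and Nr4a3, the AP-1 genes Fos, Fosb, Jun and Junb, and Egr1, Ier2 and Atf3. The 10 genes were taken by name as a family from the 24411 genes of the counts table, with earlier results of these data known. Nr4a1 is also a gene that the study had marked from these same libraries, so its difference between genotypes is not independent evidence. Bulk RNA sequencing had been made from decapsulated testes of mice aged 20 weeks and kept without treatment. The groups were 4 WT libraries (C57Bl/6J, for which the study describes littermates from crosses of Irp1 heterozygotes), 4 Irp1-/- libraries (global knockout of Aco1, which encodes IRP1) and 3 Irp2-/- libraries (global knockout of Ireb2, which encodes IRP2). Both deletions are global, so that every testis cell type and every other organ lacked the protein. The construction of the Irp2-/- line is not given in the sources used here, and the labels number the libraries without tying them to animals, so p-values measure the spread between these libraries.

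Immediate early genes are transcribed within minutes of a stimulus without new protein synthesis, from promoters bound beforehand by factors such as CREB, SRF and its ternary complex partners, and their mRNAs are short-lived. Fos and Jun proteins pair to form AP-1, Egr1 is a zinc finger factor, and the 3 NR4A proteins are orphan nuclear receptors that bind DNA as monomers or with RXR. In Leydig cells, the steroid-producing cells of the testis interstitium, luteinizing hormone acting through cAMP is known to induce Nr4a1, whose protein acts on promoters of steroidogenic genes.

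Total counts ran from 15902473 to 22451417 per library. Levels are given as CPM, read counts scaled to a common library size, after TMM scaling, which corrects library sizes for composition. The targeted genes followed their labels: Aco1 was 8.58 ± 0.622 CPM (SD, n = 4) in Irp1-/- and 11.8 ± 1.36 CPM (n = 4) in WT testes, lower by a log2 change of -0.45 (adjusted p = 0.0158 in edgeR), and Ireb2 was 62.2 ± 0.514 CPM (n = 3) in Irp2-/- and 140.0 ± 5.84 CPM (n = 4) in WT testes, a log2 change of -1.16 (adjusted p = 2.84e-13 in edgeR). Aco1 transcript therefore remained countable in the Irp1-/- libraries. Every gene of the spermatocyte, spermatid, Sertoli and Leydig cell marker lists had counts in each genotype. The column name of Irp1-/- replicate 6 carries the letter R where the other 10 carry L, whose meaning is not stated, so values without that library are given beside the results where leaving it out changed a call or a sign. Without it the genes called over the whole table in Irp1-/- against WT went from 164 to 102, and Nr4a1 was still called, at a log2 change of 0.25 (adjusted p = 0.0124 in edgeR).

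The promoters of 8 of the 10 genes were read from RefSeq sequences (GRCm38.p6), and the 250 bases before each listed start were searched on both strands for short motifs. The cAMP response element (CRE) core TGACG occurred 4 times in each of the Nr4a1, Nr4a2 and Nr4a3 windows, 2 times in Fos and 1 time in Fosb, Junb and Atf3, and was not found in the Jun window. Of 27025 mouse promoter windows of the same length, 17.9% held at least 1 and 0.152% at least 4, a number chosen after the windows had been read. The full CRE TGACGTCA (1.62% of all windows), the AP-1 site TGANTCA (6.87%), the NR4A monomer site AAAGGTCA (1.31%) and the SRF-binding CArG box (1.4%) were not found in any of the 8 windows, which says only that these letters are not there. The Egr site GCGNGGGCG (4.65% of all windows) was found in Nr4a1, Nr4a2 and Fosb. The TATA box letters TATAAA (13.0%) were found in Fos on the strand of the gene, beginning at base -33. In Nr4a2 they were found on the opposite strand only, as TTTATA beginning at base -164.

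The Nr4a1, Nr4a2 and Fos windows are printed because they show the NR4A gene whose level differed between genotypes, a relative whose difference passed no test, and the best-known immediate early gene. Each is given 5′ to 3′ on the strand of its gene, with CRE cores, Egr sites and TATA boxes, on either strand, in capitals. The Nr4a1 window (chr15:101266596-101266845, plus strand) ends at a start that lies 12944 bases inside the gene's annotated span of 101253902 to 101274795. Whether exons of other transcripts of the gene fall in this window was not tested. The Nr4a2 window (chr2:57124004-57124253, minus strand) and the Fos window (chr12:85473640-85473889, plus strand) lie outside their genes.
Nr4a1: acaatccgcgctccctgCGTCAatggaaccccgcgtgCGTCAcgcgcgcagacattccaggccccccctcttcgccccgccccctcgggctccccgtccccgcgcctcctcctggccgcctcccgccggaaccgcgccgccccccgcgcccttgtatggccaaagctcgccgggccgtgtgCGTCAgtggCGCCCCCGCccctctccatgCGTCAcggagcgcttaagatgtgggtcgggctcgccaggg
Nr4a2: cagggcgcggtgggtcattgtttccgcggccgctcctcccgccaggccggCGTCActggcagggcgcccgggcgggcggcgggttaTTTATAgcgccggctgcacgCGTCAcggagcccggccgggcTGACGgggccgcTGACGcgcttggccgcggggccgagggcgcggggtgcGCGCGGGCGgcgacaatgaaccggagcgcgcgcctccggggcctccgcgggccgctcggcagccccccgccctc
Fos: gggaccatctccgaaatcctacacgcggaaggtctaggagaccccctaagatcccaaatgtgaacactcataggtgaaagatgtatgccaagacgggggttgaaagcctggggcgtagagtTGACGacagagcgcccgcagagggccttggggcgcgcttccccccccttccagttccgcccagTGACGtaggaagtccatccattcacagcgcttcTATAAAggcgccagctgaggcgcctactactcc
In Nr4a1 the CRE cores begin at bases -233, -213, -69 and -40 from the start, and an Egr site begins at -60, between the last pair. In Nr4a2 they begin at -200, -144, -123 and -111. In Nr4a3 they begin at -231, -213, -205 and -147, from a start 227 bases inside the gene's annotated span, so most of that window lies in the gene. A match to these letters is a description of the sequence and not a bound site.

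Per length, Nr4a1 was the most abundant of the 10 transcripts in all 3 genotypes. WT levels are given here as CPM per kilobase of the exons of each gene in GENCODE vM21, which may differ from the annotation used for counting. Nr4a1 was at 18.3 CPM per kilobase, followed by Jun at 2.92, Junb at 2.37, Ier2 at 2.06 and Egr1 at 1.11 CPM per kilobase. Fosb at 0.658, Nr4a3 at 0.643, Nr4a2 at 0.243, Fos at 0.184 and Atf3 at 0.0594 CPM per kilobase were the lowest. The 4 WT libraries of neighbouring genes in this order did not overlap between Nr4a1 and Jun, Jun and Junb, Ier2 and Egr1, Nr4a3 and Nr4a2, or Fos and Atf3, and overlapped between the other 4 neighbouring pairs. Nr4a1 thus stood apart from its own relatives: its lowest WT library, at 17.6 CPM per kilobase, compared with a highest of 0.802 for Nr4a3 and 0.345 for Nr4a2.

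The libraries of the 3 genotypes did not overlap in Nr4a1, which was highest in Irp1-/- and lowest in Irp2-/- testes. WT replicates 1 to 4 had 48.1, 51.2, 49.3 and 47.2 CPM. Irp1-/- replicates 1, 2, 6 and 7 had 58.9, 57.9, 61.1 and 57.6 CPM. Irp2-/- replicates 1 to 3 had 45.5, 42.8 and 45.1 CPM. The lowest Irp1-/- library lay above the highest WT library, and the lowest WT library above the highest Irp2-/- library. The means were 48.9 ± 1.74 CPM (SD, n = 4) in WT, 58.9 ± 1.58 CPM (n = 4) in Irp1-/- and 44.5 ± 1.48 CPM (n = 3) in Irp2-/- testes.

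Against WT, Nr4a1 was higher in Irp1-/- testes by a log2 change of 0.27 (SE 0.0467, 95% interval 0.17 to 0.36, adjusted p = 0.00194, edgeR's quasi-likelihood test), that is 1.2-fold. Of the 10 genes 8 passed the filter on low counts in this comparison, and Nr4a1 was the 1 gene of the 8 whose adjusted p was under 0.05, where 1.02% of all 16002 genes tested were called. Of those 8 genes, 1 had non-overlapping libraries, against 6.63% of all genes tested. It ranked 34 among all genes by p. In bulk tissue a difference in the number of cells of a type and a difference in RNA per cell cannot be told apart. Against WT, Irp2-/- testes were lower in Nr4a1 by a log2 change of -0.13 (SE 0.0555, 95% interval -0.25 to -0.02, adjusted p = 0.392 in edgeR), which did not pass the test. Both comparisons share the 4 WT libraries, so the knockouts were also set against each other. Nr4a1 was higher in Irp1-/- than in Irp2-/- by a log2 change of 0.41 (SE 0.0533, 95% interval 0.30 to 0.52, adjusted p = 4.77e-05 in edgeR), that is 1.32-fold.

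**Figure D1:**
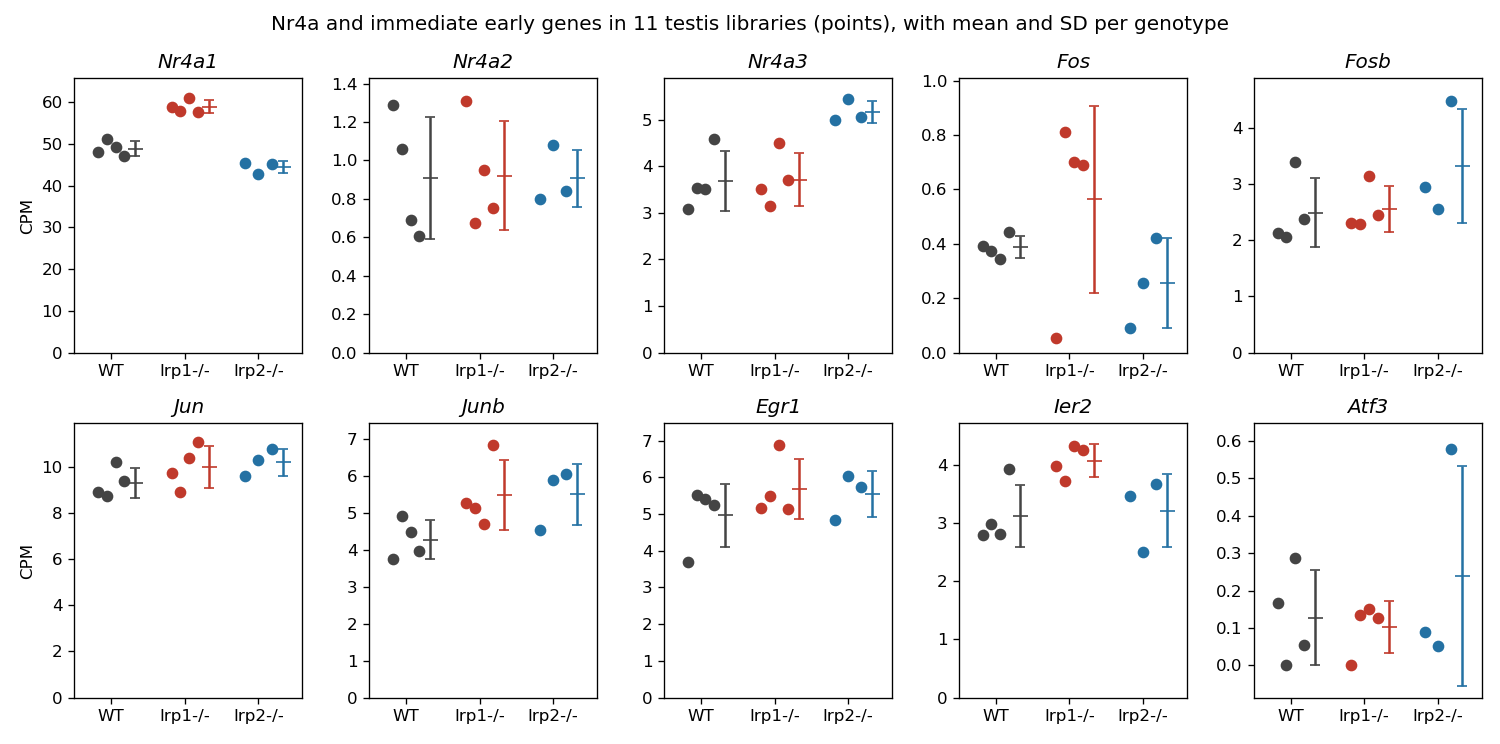
CPM (y axis, from 0 except where an SD bar reaches below it) of the 10 genes in WT, Irp1-/- and Irp2-/- testes (x axis), with 1 point per library and the mean and SD per genotype beside the points. Nr4a1 falls into 3 groups that do not overlap, at 47.2 to 51.2, 57.6 to 61.1 and 42.8 to 45.5 CPM, and the Nr4a3 libraries of Irp2-/- lie above the other 8, while most other genes overlap.

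The replicates of Nr4a1 agreed about as closely as counting allows. Its coefficient of variation within a genotype was 3.55% in WT, 2.69% in Irp1-/- and 3.32% in Irp2-/-, where its mean counts alone give 3.43%, 2.96% and 3.32%. The chi-square of the counts per degree of freedom within genotypes, which is near 1 when replicates differ by counting error alone, was 0.949 for Nr4a1, against a median of 1.87 over 16357 genes tested in any comparison. That is the 16.1 percentile. Jun, the main AP-1 partner of Fos, was next at 1.07, and Ier2, Nr4a3 and Nr4a2 had 1.36, 1.49 and 1.5. Junb had 2.12, Fos 2.14, Egr1 2.21, Atf3 2.97 and Fosb 2.98, the last at the 72.3 percentile. The spread of the 10 genes therefore lay on both sides of the median gene. That median is not matched for count: at equal relative spread the ratio grows with the count. Mean counts in Irp1-/- libraries ran from 2 for Atf3 to 1140 for Nr4a1.

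**Figure D2:**
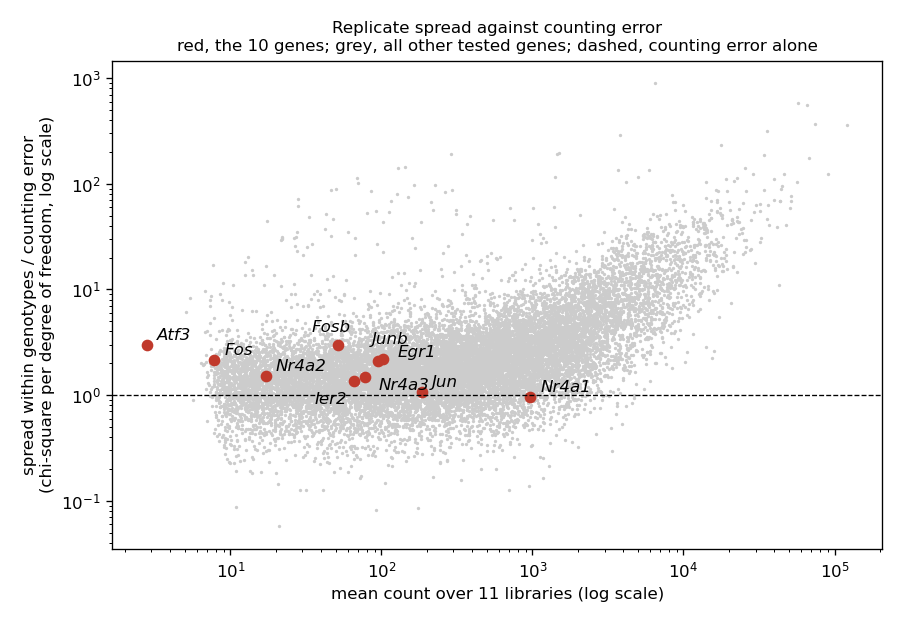
Spread within genotypes divided by counting error (y axis, chi-square per degree of freedom, log scale) against the mean count over 11 libraries (x axis, log scale), with the 10 genes in red and the other tested genes in grey. Nr4a1 lies on the dashed line of counting error alone at 0.949, whereas Fosb and Atf3 lie near 3 times that line (2.98 and 2.97).

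Nr4a3, the relative of Nr4a1 also known as NOR1, was level between WT and Irp1-/- testes, and its Irp2-/- libraries all lay above the rest. WT replicates 1 to 4 had 3.08, 3.54, 3.51 and 4.59 CPM. Irp1-/- replicates 1, 2, 6 and 7 had 3.50, 3.15, 4.49 and 3.71 CPM. Irp2-/- replicates 1 to 3 had 4.99, 5.43 and 5.05 CPM. WT and Irp1-/- overlapped nearly whole, and each Irp2-/- library exceeded each of the other 8. The difference from WT in Irp2-/- was a log2 change of 0.49 (SE 0.149, 95% interval 0.18 to 0.79, adjusted p = 0.146 in edgeR), which did not pass the test. Between Irp1-/- and Irp2-/- it was -0.47 (SE 0.143, 95% interval -0.77 to -0.18, adjusted p = 0.0632 in edgeR), which did not pass either. Without Irp1-/- replicate 6 this became a log2 change of -0.59 with adjusted p = 0.0248 (edgeR). That was the 1 call among 7 fits that each left out a library. Without Irp2-/- replicate 2 the log2 change was -0.44 with adjusted p = 0.216 (edgeR), and DESeq2 on all libraries gave adjusted p = 0.179. Against WT, the Irp1-/- log2 change was 0.01 (95% interval -0.31 to 0.33, adjusted p = 0.99 in edgeR), and -0.10 without Irp1-/- replicate 6. Nr4a3 lies on chromosome 4 at 48045078 to 48086447 (GRCm38), 7.85 Mb from the deleted Aco1, with 108 tested genes between them.

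Nr4a2, the third NR4A gene, was low and did not differ detectably at this depth. Counts were 23, 17, 12 and 11 in WT replicates 1 to 4, 25, 15, 19 and 12 in Irp1-/- replicates 1, 2, 6 and 7, and 18, 21 and 16 in Irp2-/- replicates 1 to 3. The 3 genotypes overlapped throughout, at 0.91 ± 0.318 CPM (SD, n = 4), 0.921 ± 0.282 CPM (n = 4) and 0.907 ± 0.149 CPM (n = 3). Its log2 changes against WT were 0.02 in Irp1-/- (95% interval -0.59 to 0.63) and -0.01 in Irp2-/- (95% interval -0.65 to 0.64), so that changes within those bounds could not be seen.

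Among Fos, Fosb, Jun and Junb none passed the test in any comparison by edgeR or by DESeq2, and Junb alone had an unadjusted p under 0.05, in both knockouts against WT. Junb, which encodes a Jun relative that often restrains AP-1 activity, had 3.75, 4.91, 4.48 and 3.98 CPM in WT replicates 1 to 4. It had 5.28, 5.13, 4.69 and 6.85 CPM in Irp1-/- replicates 1, 2, 6 and 7, and 4.54, 5.90 and 6.05 CPM in Irp2-/- replicates 1 to 3. The highest WT library overlapped the lowest library of each knockout. The Junb log2 changes against WT were 0.35 in Irp1-/- (SE 0.138, 95% interval 0.07 to 0.63, adjusted p = 0.275 in edgeR) and 0.36 in Irp2-/- (95% interval 0.06 to 0.66, adjusted p = 0.374 in edgeR). Both rest on the same WT libraries. Between the knockouts the Junb difference was -0.01 on the log2 scale (95% interval -0.31 to 0.29), and 0.06 without Irp1-/- replicate 6.

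Jun stayed within a narrow range. It had 8.90, 8.76, 10.2 and 9.40 CPM in WT replicates 1 to 4, 9.73, 8.90, 10.4 and 11.1 CPM in Irp1-/- replicates 1, 2, 6 and 7, and 9.62, 10.3 and 10.8 CPM in Irp2-/- replicates 1 to 3. The groups overlapped, and the log2 changes against WT were 0.10 in Irp1-/- (95% interval -0.10 to 0.29) and 0.14 in Irp2-/- (95% interval -0.07 to 0.34). Jun is also on chromosome 4, 54.9 Mb from Aco1.

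Fosb, a Fos relative, was led by single libraries. WT replicates 1 to 4 had 2.13, 2.05, 3.39 and 2.38 CPM, Irp1-/- replicates 1, 2, 6 and 7 had 2.30, 2.29, 3.14 and 2.45 CPM, and Irp2-/- replicates 1 to 3 had 2.94, 2.56 and 4.47 CPM. WT replicate 3, Irp1-/- replicate 6 and Irp2-/- replicate 3 stood above the others of their genotype. Its log2 change was 0.41 in Irp2-/- against WT (95% interval -0.03 to 0.86, adjusted p = 0.581 in edgeR). Without Irp2-/- replicate 3 it was 0.14, and without WT replicate 3 it was 0.59 (adjusted p = 0.293 in edgeR). In Irp1-/- against WT it was 0.03 (95% interval -0.35 to 0.42), and -0.09 without Irp1-/- replicate 6.

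Fos itself was at the edge of detection. Counts were 7, 6, 6 and 8 in WT replicates 1 to 4, 1, 18, 14 and 11 in Irp1-/- replicates 1, 2, 6 and 7, and 2, 5 and 8 in Irp2-/- replicates 1 to 3. Irp1-/- thus held both the lowest library and the 3 highest of all 11. The WT counts were closer together than counting error gives on average, with a coefficient of variation of 10.6% where a mean of 6.75 counts gives 38.5%. Fos did not pass the filter on low counts against WT. With no filter its log2 change was 0.54 in Irp1-/- (95% interval -0.36 to 1.43, adjusted p = 0.739 in edgeR) and -0.63 in Irp2-/- (95% interval -1.70 to 0.45, adjusted p = 0.856 in edgeR). Between the knockouts, where it passed the filter, it was 1.18 (SE 0.607, 95% interval -0.10 to 2.46, adjusted p = 0.36 in edgeR). It passed there only through the Irp1-/- libraries with 18, 14 and 11 counts, and was not tested when any 1 of these was left out. The value was 0.74 without Irp2-/- replicate 1, 1.55 without Irp1-/- replicate 1 (adjusted p = 0.0833 in edgeR) and 1.73 without Irp2-/- replicate 3.

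Egr1, a zinc finger factor induced by growth factor and hormone signals, overlapped between the genotypes. It had 3.69, 5.53, 5.40 and 5.25 CPM in WT replicates 1 to 4, 5.18, 5.49, 6.89 and 5.15 CPM in Irp1-/- replicates 1, 2, 6 and 7, and 4.85, 6.05 and 5.73 CPM in Irp2-/- replicates 1 to 3. WT replicate 1 was the lowest of all 11 libraries and Irp1-/- replicate 6 the highest. The Egr1 log2 changes against WT were 0.20 in Irp1-/- (95% interval -0.08 to 0.48, adjusted p = 0.613 in edgeR) and 0.16 in Irp2-/- (95% interval -0.15 to 0.46, adjusted p = 0.847 in edgeR). Without WT replicate 1 they were 0.08 and 0.04. Without Irp1-/- replicate 6 the Irp1-/- value was 0.09, and the Egr1 difference between the knockouts went from 0.04 to -0.07. Without Irp2-/- replicate 2 the Irp2-/- value was 0.09, and without Irp2-/- replicate 1 it was 0.25.

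Ier2, a short immediate early gene whose product acts as a transcriptional regulator, was highest in Irp1-/- by mean. It had 2.80, 2.98, 2.82 and 3.93 CPM in WT replicates 1 to 4, 3.98, 3.73, 4.34 and 4.27 CPM in Irp1-/- replicates 1, 2, 6 and 7, and 3.47, 2.51 and 3.68 CPM in Irp2-/- replicates 1 to 3. WT replicate 4 alone reached into the Irp1-/- range, and the highest Irp2-/- library lay just below the lowest Irp1-/- library. The Ier2 log2 change was 0.38 against WT (SE 0.147, 95% interval 0.07 to 0.68, adjusted p = 0.272 in edgeR) and 0.34 against Irp2-/- (95% interval 0.01 to 0.66, adjusted p = 0.291 in edgeR). Neither passed the test. Leaving out 1 library in turn gave 0.33 to 0.51 against WT, the highest without WT replicate 4 (adjusted p = 0.153 in edgeR). Between the knockouts the difference was 0.19 without Irp2-/- replicate 2 and 0.44 without Irp2-/- replicate 3.

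Atf3, a stress-induced member of the ATF family, had 9 counts in all in WT, 8 in Irp1-/- and 14 in Irp2-/- libraries. Counts were 3 or fewer in 3 of 4 WT, 4 of 4 Irp1-/- and 2 of 3 Irp2-/- libraries, and Irp2-/- replicate 3 alone had 11. It passed the filter in no comparison, and its differences were not detectable at this depth. The same library was the highest of its genotype for 6 of the 10 genes, where it was the highest for 31.9% of all genes tested and for 19 of 38 other immediate early genes. Irp1-/- replicate 6 was likewise highest of its genotype for 6 of the 10 genes, where it was the highest for 25.5% of all genes tested and 12 of 38 other immediate early genes. Heat shock and handling genes were highest there for 2 of 10 in the first library and 1 of 10 in the second.

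**Figure D3:**
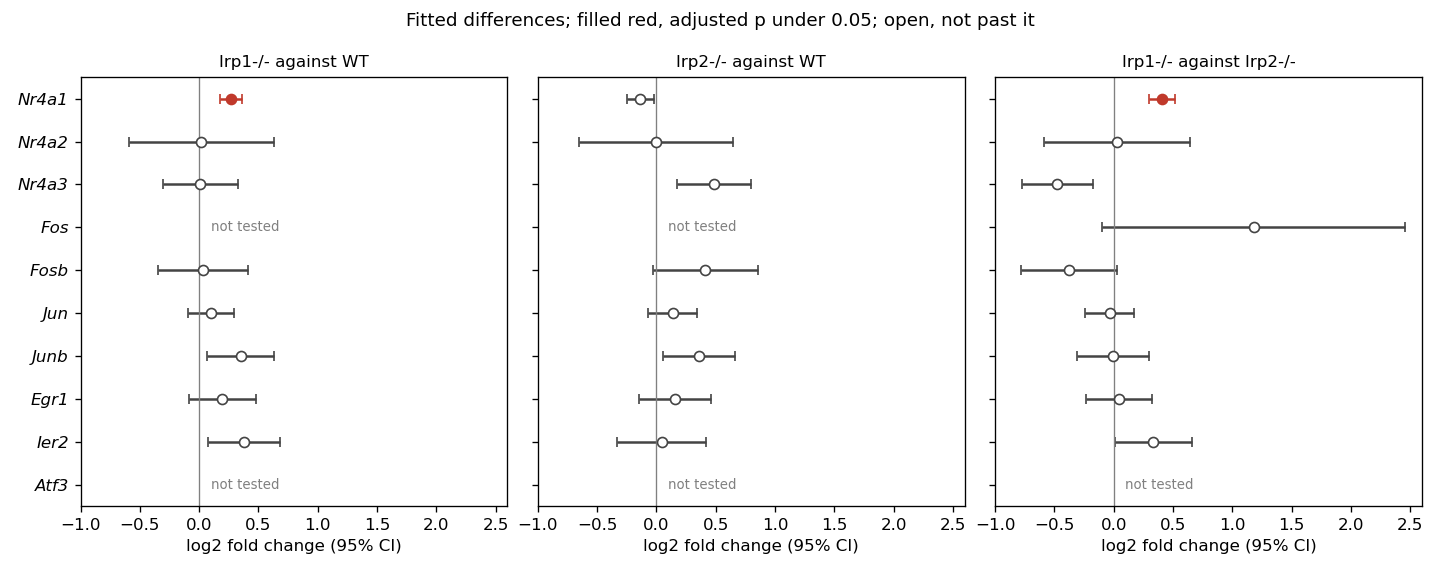
Fitted log2 change with its 95% interval (x axis) for each of the 10 genes (y axis) in the 3 comparisons, filled red where the adjusted p of edgeR's test over all genes was under 0.05. Nr4a1 is the 1 filled gene, at 0.27 in Irp1-/- against WT and 0.41 in Irp1-/- against Irp2-/-, and genes removed by the filter on low counts are written as not tested.

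By comparison, the tested genes of the 10 gave 1 call in Irp1-/- against WT, none in Irp2-/- against WT and 1 in Irp1-/- against Irp2-/-. In Irp2-/- against WT, 8 genes were tested, 1.21% of all 16154 genes were called by edgeR, and 3 of the 8 (Nr4a1, Nr4a3 and Junb) had an unadjusted p under 0.05, as did 9.42% of all genes. With DESeq2 in place of edgeR the count of calls was also 0. Nr4a1 and Nr4a3 were the 2 whose libraries did not overlap, lower and higher respectively, where 9.23% of all genes did not overlap. In Irp1-/- against Irp2-/-, 9 genes were tested and Nr4a1 was called, where 4.69% of all 16281 genes were called. Nr4a1, Nr4a3 and Ier2 did not overlap there, against 15.2% of all genes. In Irp1-/- against WT the median log2 change of the tested genes was 0.15, beside 0.00 (-0.000787) over all genes. All 8 were above 0, as were 49.7% of all genes. Nr4a2 (0.018), Nr4a3 (0.00876) and Fosb (0.0334) were close to 0 and changed sign when single libraries were left out. Without the filter, Fos was at 0.54 and Atf3 at -0.31. The median was 0.15 in Irp2-/- against WT, with 6 of 8 above 0 (51.3% of all genes). Between the knockouts it was 0.03, with 5 of 9 above 0 (49.4% of all genes). The 5 include Fos, which passed the filter only through its high Irp1-/- libraries.

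Leydig cells are a known site of Nr4a1 induction. Of 8 of their markers, 2 were called higher in Irp1-/- against WT, where 1.02% of all genes tested were called. All 8 had a log2 change above 0, as did 49.7% of all genes tested. The summed level of 8 Leydig cell markers was 788, 758, 1050 and 998 CPM in WT replicates 1 to 4. It was 1160, 1210, 1010 and 1030 CPM in Irp1-/- replicates 1, 2, 6 and 7, and 922, 782 and 1010 CPM in Irp2-/- replicates 1 to 3. The sums overlapped between genotypes. The markers called higher in Irp1-/- against WT were Fabp3, a fatty acid binding protein gene (log2 change 0.24, adjusted p = 0.00822 in edgeR) and Hsd17b3, which makes testosterone (0.37, adjusted p = 0.0232), with a median over the list of 0.39. The sum is not a count of cells: over the 11 libraries Insl3 alone ran from 377 to 551 CPM and Cyp17a1 from 91.7 to 300 CPM. Nr4a1 was at 47.2 to 51.2 CPM in WT libraries, whose sums ran from 758 to 1050 CPM. It was at 57.6 to 61.1 CPM in Irp1-/- libraries, whose sums ran from 1010 to 1210 CPM. As a share of the marker sum Nr4a1 overlapped between the genotypes, at 4.69% to 6.76% in WT, 4.78% to 6.04% in Irp1-/- and 4.46% to 5.47% in Irp2-/- libraries. The 10 Sertoli cell markers summed to 983 to 1060 CPM in WT and to 1100 to 1230 CPM in Irp1-/- libraries, which did not overlap, and to 987 to 1130 CPM in Irp2-/-. Clu, the secreted chaperone clusterin, was the 1 Sertoli marker called in Irp1-/- against WT (log2 change 0.17, adjusted p = 0.0473 in edgeR). Clu made up most of the Sertoli sums, at 832 of a mean 1020 CPM in WT and 932 of a mean 1140 CPM in Irp1-/-. In that comparison it was also the 1 Sertoli marker whose libraries did not overlap, so the sum and the call there are largely the same observation. Of the 10 markers, 9 had a log2 change above 0 against WT. Between the knockouts, 3 of the 10 were called higher in Irp1-/-, where 4.69% of all genes tested were called. They were Fshr (0.825, adjusted p = 0.0365 in edgeR), Amh (0.856, adjusted p = 0.0366) and Rhox5 (0.363, adjusted p = 0.0394). Fshr and Amh were low, at means of 2.19 and 2.18 CPM in Irp1-/-, and 7 of the 10 were above 0. The part of either cell type in the Nr4a1 difference was not tested.

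**Figure D4:**
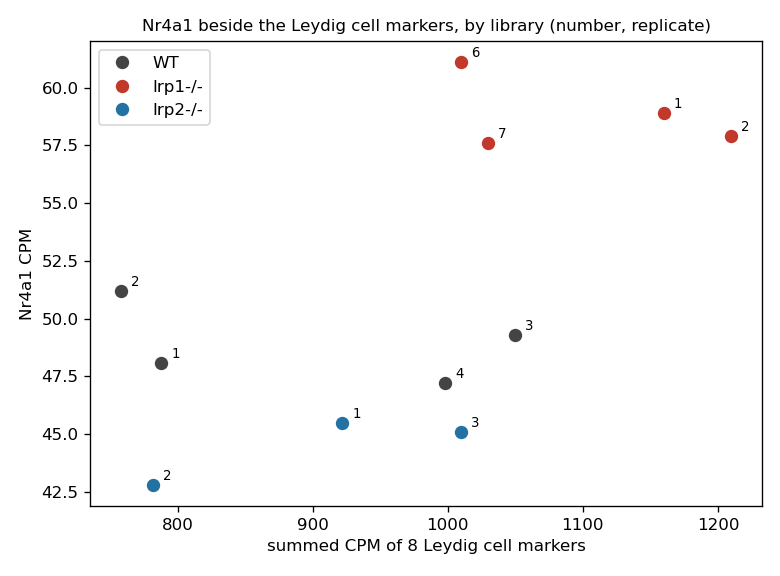
Nr4a1 CPM (y axis) against the summed CPM of 8 Leydig cell markers (x axis) in each of the 11 libraries, numbered by replicate. The Irp1-/- libraries sit at 57.6 to 61.1 CPM of Nr4a1 and sums of 1010 to 1210 CPM. The WT libraries sit at 47.2 to 51.2 CPM and sums of 758 to 1050 CPM, and the Irp2-/- libraries at 42.8 to 45.5 CPM and sums of 782 to 1010 CPM.

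Partners and targets of the NR4A receptors were read from a list of 12 genes. None passed the test (edgeR) in either knockout against WT, with an unadjusted p under 0.05 for 2 of 12 in Irp1-/- and 1 of 12 in Irp2-/-. Hsd3b1, a steroidogenic enzyme gene, had 36.4 ± 5.25 CPM (SD, n = 4) in WT, 48.4 ± 3.36 CPM (n = 4) in Irp1-/- and 30.4 ± 6.5 CPM (n = 3) in Irp2-/- testes. Its Irp1-/- libraries did not overlap those of WT (log2 change 0.41, adjusted p = 0.057 in edgeR), and it was called higher in Irp1-/- than in Irp2-/- (0.68, adjusted p = 0.017 in edgeR). Nr5a1, which encodes the steroidogenic factor SF-1 (log2 change 0.24, adjusted p = 0.0369 in edgeR), and Insl3, a Leydig cell hormone gene (0.27, adjusted p = 0.0425 in edgeR), were called higher there too, so that 3 of 12 were called between the knockouts. Hsd3b1 and Insl3 also stand among the 8 Leydig cell markers. With Fabp3 (0.34, adjusted p = 0.0363 in edgeR) they were the 3 of those 8 called higher in Irp1-/- than in Irp2-/-.

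The other genes of the immediate early response and its signalling were called at shares given here beside those of all genes. Of 119 other genes in 7 lists (AP-1 relatives, Egr and Ier relatives, other immediate early genes, SRF and CREB regulators, MAP kinases, the luteinizing hormone and cAMP pathway, and the NR4A partners), 114 were tested in Irp1-/- against WT, 0 were called higher and 2 lower by edgeR, a share of 1.75% beside 1.02% of all genes tested. Of 37 tested other immediate early genes, 1 was called, Sik1, a cAMP-induced kinase gene, at 33.8 ± 2.37 CPM (SD, n = 4) in Irp1-/- and 40.0 ± 2.7 CPM (n = 4) in WT (log2 change -0.25, adjusted p = 0.0341 in edgeR). Of the 17 pathway genes, Prkar2a, a regulatory subunit of protein kinase A, was called lower (-0.19, adjusted p = 0.0143 in edgeR). Sik1 thus fell where Nr4a1 rose, and it was also lower in Irp1-/- than in Irp2-/- (-0.31, adjusted p = 0.00367 in edgeR).

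In Irp2-/- against WT, 115 of the 119 were tested, 1 was called higher and 2 lower, a share of 2.61% beside 1.21% of all genes tested. In Irp1-/- against Irp2-/- 115 were tested, 5 were called higher and 3 lower, a share of 6.96% beside 4.69% of all genes. Jund, the AP-1 gene of the Jun family that is expressed without stimulation, had 115 ± 6.42 CPM (SD, n = 3) in Irp2-/-, 133 ± 8.41 CPM (n = 4) in WT and 136 ± 7.35 CPM (n = 4) in Irp1-/- testes. It was lower in Irp2-/- than in WT by a log2 change of -0.22 (adjusted p = 0.0468 in edgeR) and higher in Irp1-/- than in Irp2-/- by 0.25 (adjusted p = 0.00644 in edgeR). Rps6ka1, which encodes the kinase RSK1 of the MAP kinase pathway, was higher in Irp2-/- than in WT (0.29, adjusted p = 0.00661 in edgeR), and Mapk10, which encodes the kinase JNK3, was lower (-0.30, adjusted p = 0.017 in edgeR). Between the knockouts Rps6ka1 (-0.27, adjusted p = 0.00557 in edgeR) and Rps6ka4, which encodes the kinase MSK2 (-0.24, adjusted p = 0.0467 in edgeR), were lower in Irp1-/-, and Mapk10 was higher (0.24, adjusted p = 0.0271 in edgeR). In the Irp2-/- libraries 6 endothelial markers summed to 44.3 to 47.2 CPM (mean 45.7), and in WT to 38.3 to 40.8 CPM (mean 39.7). Most of that rise was Vwf, at 22.3 ± 1.31 CPM (SD, n = 3) in Irp2-/- and 17.3 ± 1.31 CPM (n = 4) in WT. Vwf was the 1 marker called higher (0.37, adjusted p = 0.0127 in edgeR). Of the 6 markers, 3 had a log2 change above 0, with a median of 0.07, so the list did not rise as a whole. The part of endothelial cells in the Nr4a3 levels was not tested. Of 10 heat shock and handling genes, none was called in any of the 3 comparisons by edgeR, 1 of 10 had an unadjusted p under 0.05 in Irp1-/- against WT, 0 in Irp2-/- against WT and 1 between the knockouts.

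Likeness of pattern was measured as Pearson's r of log2 CPM after subtracting genotype means, over 11 libraries and 14986 genes with a mean of at least 1 CPM. Among those most like Nr4a1 were 4931406P16Rik (r = 0.974), 1700120G07Rik (0.938), 1700109G15Rik (0.932) and Ppm1h (0.93). Most like Fos were Ube3a (0.946), Gm10058 (0.922), Zfp652 (0.917), Nin (0.913) and Ints8 (0.91). Most like Egr1 were Recql4 (0.964), Mat2b (0.944), Pm20d1 (0.93), Zfp395 (0.925) and 1010001N08Rik (0.92). No other gene of the 10 was among the 5 most like each, and for Nr4a1 the deviations compared are of the size of counting error. Fos had only 1 to 18 counts per library. Each list holds the 5 highest r of 14986 genes over 11 libraries, so these values describe the ranking and do not show a link between genes.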

How the data were processed

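RNA from decapsulated testis had been made into Illumina stranded mRNA libraries of polyadenylated RNA. The authors ran the nf-core RNA-seq pipeline on the mm10 genome, and per the labels used bcl2fastq 2.20.0.422 and DESeq2; the counting tool is not given in the sources used here. The authors deposited raw read counts per gene, which were used as deposited. Each pair of genotypes was fitted with edgeR 4.0.16 (R 4.3.3; TMM scaling, filterByExpr, robust quasi-likelihood F test), with Benjamini-Hochberg adjustment over all genes tested and a threshold of 0.05. The 15 replicate pairs differed by 2 to 7.05 times sampling noise (chi-square per degree of freedom), so each library counted as 1 sample. On simulated counts with 200 genes changed 2-fold, 89.5% were recovered for Irp1-/- against WT (15875 genes; 6.28% of calls false), 87% for Irp2-/- against WT (16027 genes; 4.92%) and 87.5% between the knockouts (16150 genes; 4.37%). Smaller changes, as found here, were not simulated. Named genes were the 10 genes, Aco1 and Ireb2, per list up to 6 genes with the smallest p among those called (otherwise the 2 smallest, given here only where they bear on a result), and the 5 genes most like Nr4a1, Fos and Egr1, of which 1 is not reported here. The 10 genes and the lists were chosen with earlier results of these data known. Alternatives were RLE scaling, other count filters, DESeq2 1.42.0, all 11 samples in 1 fit, a replicate block and leaving out each replicate. Promoter motifs were exact matches.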

Additional observations from a re-analysis of the deposited data

Results flagged for a closer look

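Within the 20 groups of 4 libraries examined (10 genes in WT and in Irp1-/-), 4 had a library whose gap to its nearest neighbour took up more of the group's range than Dixon's 95% limit allows; chance flags about 1 in 20 such groups. Fos was at 0.0523 CPM (1 count) in Irp1-/- replicate 1, with the other 3 between 0.691 and 0.809 CPM. Atf3 was at 0 CPM in the same library, where a count of 3 or fewer was found in all 4. Egr1 was at 3.69 CPM in WT replicate 1, with the other 3 between 5.25 and 5.53 CPM, and Ier2 was at 3.93 CPM in WT replicate 4, with the other 3 between 2.80 and 2.98 CPM. The Irp2-/- groups of 3 could not be examined in this way.

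The knockouts differed in Nr4a1 when set against each other, with a log2 change of 0.41 (0.405; adjusted p = 4.77e-05 in edgeR) and no overlap between 4 Irp1-/- and 3 Irp2-/- libraries.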

How the results depend on the processing

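Nr4a1 was called in Irp1-/- against WT in all 14 alternatives, with log2 fold changes of 0.23 to 0.27 under 6 other settings and 0.25 to 0.29 without one replicate (adjusted p 0.00175 to 0.0138, edgeR), and in Irp1-/- against Irp2-/- in all 13. No alternative called any of the 10 genes in Irp2-/- against WT. No clear pairing by replicate number was seen: deviations of same-numbered libraries correlated at 0.00928 to 0.106, and 3 of 6 Irp2-/- and WT libraries correlated best with their own number. With so few libraries per genotype, this check cannot exclude a pairing. Irp1-/- shares only replicate numbers 1 and 2 with WT and with Irp2-/-. A replicate block therefore compared Irp1-/- with either group through those libraries alone, and its calls there add little to the other settings. With this block, the genes called over all went from 164 to 439 in Irp1-/- against WT and from 196 to 132 in Irp2-/- against WT. Between the knockouts they went from 763 to 852, and 2 of the 10 genes were then called, Nr4a3 (-0.64, adjusted p = 0.0274 in edgeR) joining Nr4a1. Under the same replicate block, sign changes of uncalled genes gave log2 fold changes of -0.26 for Nr4a2 in Irp1-/- against WT and, between the knockouts, of 0.01 (0.00637) for Junb and -0.02 (-0.0234) for Egr1. Leaving out each replicate in turn, the 10 genes had 1 to 2 calls between the knockouts, 2 without Irp1-/- replicate 6. The number of genes called over all then ran from 55 (without Irp1-/- replicate 1) to 216 in Irp1-/- against WT. Uncalled log2 fold changes crossed 0 without one replicate, from -0.20 to 0.24 for Nr4a2, -0.10 to 0.14 for Nr4a3 and -0.0873 to 0.22 for Fosb in Irp1-/- against WT, from -0.16 to 0.21 for Nr4a2 and -0.0638 to 0.19 for Ier2 in Irp2-/- against WT, and from -0.19 to 0.17 for Nr4a2, -0.13 to 0.0756 for Junb, -0.0664 to 0.11 for Egr1 and -0.0811 to 0.0238 for Jun between the knockouts. The cause was not tested. Depth limits Fos, Atf3 and Nr4a2, whose mean counts per genotype were 18.3 or less.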
